A study of Sus scrofa domesticus with 150 samples.

Results

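The genes described here are 10 enzymes, chaperones and cofactors that turn newly made collagen chains into crosslinked fibrils: P4HA1, P4HA2, P4HA3, PLOD1, PLOD2, SERPINH1, PCOLCE, ADAMTS2, LOX and LOXL2. They were chosen by symbol from a count table of 30461 genes of the domestic pig, and each of the 10 matched 1 row. SERPINH1, ADAMTS2 and LOXL2 were named through the protein match that the table gives for the row, and the other 7 through its name column. RNA was measured in 150 samples from 6 female Yorkshire-mix pigs (the sources used here do not give their age), each with circular wounds cut through the full thickness of the skin of the back and covered with dressings, and no other treatment than an antibiotic ointment on the biopsy sites. The samples formed 29 states: unwounded skin excised on day 0 (6 samples, 1 from each animal), and the edge and the center of wounds on 14 days from day 1 to day 21. States from day 1 to day 13 held 6 wounds from 3 animals, and those of days 15, 16, 19 and 21 held 3 wounds from 3 animals. Days 1, 3, 5, 7, 11, 15 and 21 came from animals 1 to 3, and days 2, 4, 6, 9, 13, 16 and 19 from animals 4 to 6. Each of the 72 wounds gave 1 edge and 1 center sample.

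Collagen chains are modified in the endoplasmic reticulum while they are being made. Prolyl 4-hydroxylases hydroxylate prolines so that the triple helix is stable at body temperature, lysyl hydroxylases hydroxylate lysines that later carry sugars or crosslinks, and the chaperone HSP47 binds the folded helix. Outside the cell the ends of procollagen are cut off, and lysyl oxidases convert lysine side chains to aldehydes that join neighbouring molecules. In skin wounds this work falls mainly to fibroblasts and myofibroblasts laying down granulation tissue and scar.

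P4HA1, P4HA2 and P4HA3 encode the catalytic alpha subunits of prolyl 4-hydroxylase. PLOD1 and PLOD2 encode lysyl hydroxylases, of which PLOD2 modifies the telopeptides. SERPINH1 encodes HSP47. PCOLCE encodes a protein that enhances removal of the C-propeptide, and ADAMTS2 a proteinase that removes the N-propeptide. LOX and LOXL2 encode lysyl oxidases. The deposited coordinates, whose build is not given in the sources used here, place each gene on its own contig. P4HA1 spans 398090 to 493784 of contig LUXX01100060.1 on the plus strand, and LOXL2 spans 68299 to 172838 of contig LUXX01055808.1 on the minus strand. The annotated spans of 5 of the genes overlap a neighbour: P4HA1 with NUDT13, P4HA2 with PDLIM4 and SERPINH1 with MAP6 on the opposite strand, and P4HA3 with PGM2L1 and LOXL2 with ENTPD4 on the same strand. It is not stated whether reads were counted by strand, so reads from the shared stretches cannot be told apart. The neighbours' median counts were lower than those of the genes described, for example 8.0 for MAP6 against 14319.5 for SERPINH1 and 205.5 for PGM2L1 against 843.0 for P4HA3.

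Total counts ran from 13133379 to 24895572 per sample, and all 10 genes passed the filter on low counts. Keratinocyte, fibroblast, endothelial and leukocyte markers were present in skin and in wounds. The summed level of 9 keratinocyte markers had a median of 45640 CPM (counts scaled to the library's total) in day 0 skin, 32230 CPM at the edge on days 4 to 7 and 137 CPM in the center on those days. The summed level of 10 fibroblast markers had a median of 3533 CPM in day 0 skin, and on days 4 to 7 of 5237 CPM in the center and 3749 CPM at the edge. In bulk tissue, fewer cells of a type and less RNA per cell cannot be told apart.

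Of the libraries, 8 were known to stand apart from their replicates, and 7 of them were the lowest or highest of their state in some genes described here. In library 4 of the day 3 center all 10 genes lay below the other 5 libraries of that state. In library 5 of the day 9 center 8 genes did so, in library 5 of the day 6 center 6 genes, and in library 2 of the day 2 center and library 1 of the day 11 center 4 genes each. The summed level of 9 skeletal muscle markers was 65880 CPM in library 2 of the day 2 center, 52420 CPM in library 5 of the day 6 center and 32440 CPM in library 5 of the day 9 center, against medians of 7.41 to 7.86 CPM over the center libraries of days 1 to 3, 4 to 7 and 9 to 13. It was 131 CPM in library 4 of the day 3 center, where all 10 genes were low, and 8.47 CPM in library 1 of the day 11 center. Libraries that did not stand apart reached 21480 CPM in the day 2 center and 13820 CPM in the day 3 center. Levels in library 4 of the day 3 center were close to those at the edge of the same wound, for example 241.3 and 218.5 CPM for SERPINH1 and 76.1 and 69.01 CPM for LOXL2. In the wound of library 6 of the day 3 edge, LOXL2 was at 238.1 CPM at the edge and 241.1 CPM in the center. PCOLCE was at 588.1 and 737.6 CPM there. Over the center libraries of days 1 to 3 the summed keratinocyte markers had a median of 196.5 CPM and a highest value of 26390 CPM. Over the edge libraries of those days the median was 44640 CPM and the lowest value 58.66 CPM. In library 6 of the day 5 edge 7 genes lay above the other libraries, and in library 6 of the day 3 edge PCOLCE and LOXL2 did. For every gene some library of a state is the lowest and some library the highest. A count as small as that of library 6 of the day 3 edge therefore does not set a library apart, and the shares over all genes are not given here. Counts of genes called are given below with and without these 8 libraries where they change.

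On day 1 some of these genes lay below skin and others above it, and in the fit over all 150 samples every call from day 6 on was in the higher direction. With the animal as a replicate block, LOX on day 9 at the edge passed as lower (-0.83, adjusted p = 0.0431). LOX, ADAMTS2 and P4HA2 lay below day 0 skin on day 1 in the center and at the edge. PLOD2, LOXL2, SERPINH1 and P4HA1 were already above it on day 1 in the center. P4HA3 and PLOD1 followed from day 2. Across the 14 center states, 104 of 140 comparisons with day 0 were higher (edgeR's quasi-likelihood test, adjusted p below 0.05), where 28.2% of all gene comparisons were, and 6 were lower, where 27.5% were. Across the 14 edge states, 85 of 140 were higher (19.9% of all gene comparisons) and 13 were lower (14.6%). All 28 comparisons share the same 6 day 0 samples, and 2 wounds of 1 animal were counted as separate samples. Without the 8 libraries that stood apart no call was lost, and 5 were added: PCOLCE lower at the edge on days 2 and 5 and higher in the center on day 7 (adjusted p = 0.0351, 0.00932 and 0.0375), and P4HA2 lower at the edge on day 2 and higher in the center on day 3 (adjusted p = 0.0402 and 0.0253).

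**Figure D1:**
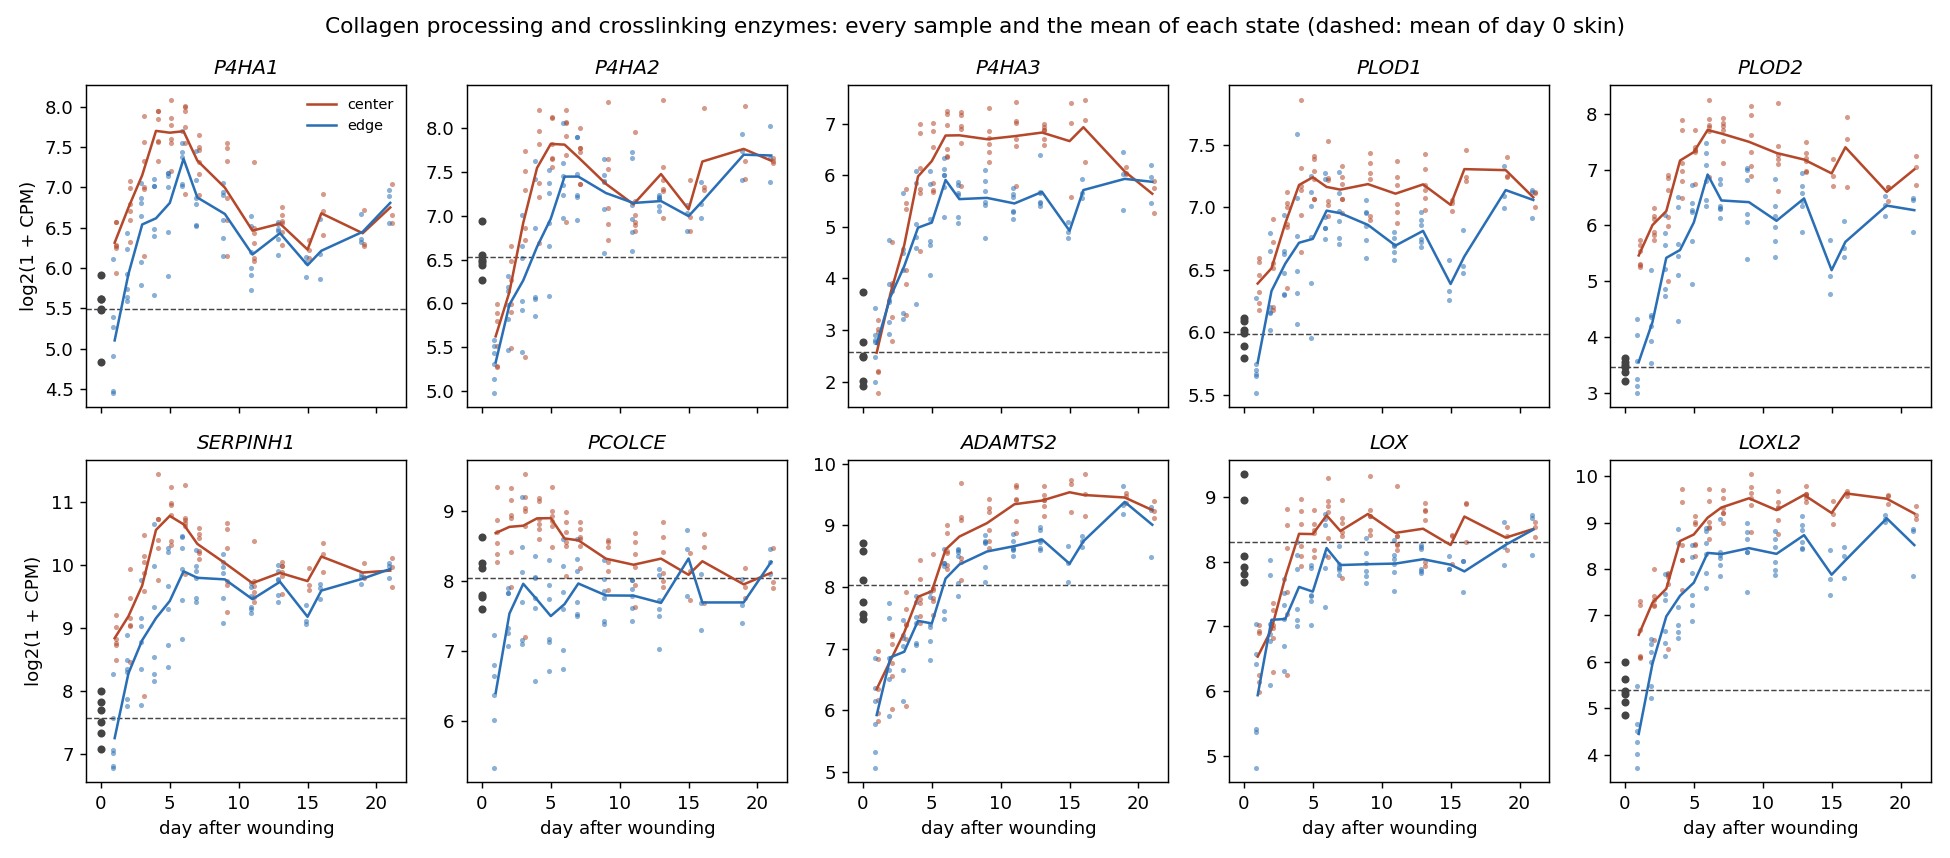
Level of each gene as log2(1 + CPM) against the day after wounding, in 10 panels. Points are single samples (black: day 0 skin; red: wound center; blue: wound edge), lines join the means of the states, and the dashed line is the mean of day 0. PLOD2, LOXL2, SERPINH1 and P4HA3 rise far above the dashed line. LOX dips on day 1 to 6.53 in the center and 5.93 at the edge, and is back near the line by day 4 in the center and day 6 at the edge.

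The 4 genes with the largest rise over skin were PLOD2, LOXL2, P4HA3 and SERPINH1. PLOD2 had the lowest mean of the 10 per length in skin, with 1.80 ± 0.23 FPKM (SD, n = 6), and P4HA3 overlapped it there. FPKM are fragments scaled by gene length and library size. The CPM of PLOD2 in the 6 skin samples had a lowest value of 8.28, a median of 10.1 and a highest of 11.3. In the center on day 1 the corresponding values were 37.0, 42.1 and 52.5 CPM, and on day 6 they were 116, 219 and 306 CPM. No center sample of either day fell within the range of skin. The change from day 0 was 1.94 ± 0.29 (log2 ± SE, adjusted p = 3.27e-09) on day 1 and 4.40 ± 0.32 (adjusted p = 2.52e-24, 21.2-fold) on day 6. PLOD2 was higher than skin in 14 of 14 center states and in 13 of 14 edge states, the exception being day 1 at the edge (0.06 ± 0.28, adjusted p = 0.89).

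LOXL2 showed the same early rise in the center and the opposite at the edge. In skin its CPM ranged from 27.9 to 63.2 with a median of 39.6. On day 1 it ranged from 66.5 to 158 with a median of 85.2 in the center and from 12.2 to 44.0 with a median of 20.1 at the edge. All 6 center samples lay above every skin sample, while the edge samples overlapped skin on its low side. The log2 difference from day 0 was 1.08 ± 0.31 (adjusted p = 0.00141) in the center and -1.04 ± 0.31 (adjusted p = 0.00387) at the edge on day 1. By day 16 the 3 center samples held 760, 815 and 797 CPM (4.40 ± 0.37, adjusted p = 1.22e-19, 21.1-fold over skin). The edge samples of that day held 310, 221 and 356 CPM, so none reached the center.

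P4HA3 started low and was called higher than skin from day 2 on, in the center and at the edge. Its skin samples ranged from 2.80 to 12.3 CPM with a median of 4.61, and day 1 center samples from 2.44 to 8.17 with a median of 5.21, which overlapped skin (-0.28 ± 0.37, adjusted p = 0.527). On day 6 the center ranged from 81.0 to 150 CPM with a median of 107 and on day 13 from 94.9 to 127 with a median of 116. The difference from day 0 was 4.28 ± 0.41 (adjusted p = 5.74e-17) on day 6 and 4.43 ± 0.41 (adjusted p = 1.47e-17) on day 13. The highest center mean fell on day 16 (6.93 ± 0.62 as log2(1 + CPM), SD, n = 3), and 6 other days from 6 to 15 lay within 1 SD of it.

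SERPINH1 was abundant throughout. In skin it ranged from 134 to 255 CPM with a median of 193, and on day 5 in the center from 1280 to 2411 with a median of 1883 (3.14 ± 0.31, adjusted p = 1.95e-16, 8.83-fold). Its center mean was highest on day 5 (10.78 ± 0.36) and those of days 4 and 6 lay within 1 SD. It was higher than skin in all 14 center states and in 12 edge states, from day 3 on. From day 9 to day 21 its center log2 differences from skin lay between 2.22 and 2.73.

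P4HA1 and PLOD1 rose less. P4HA1 had a median of 46.1 CPM in skin (27.5 to 59.4) and of 209 CPM in the center on day 4 (159 to 247), and its samples did not overlap (2.12 ± 0.23, adjusted p = 2.91e-14, 4.35-fold). By day 15 the 3 center samples were at 73.6, 80.3 and 68.6 CPM, still above all skin samples (0.81 ± 0.27, adjusted p = 0.00859), a call that did not hold without replicate 3. PLOD1 varied least among skin samples, from 54.7 to 68.2 CPM, and reached 125 to 171 CPM on day 13 in the center (1.32 ± 0.16, adjusted p = 2.68e-12). The center means of PLOD1 between its lowest state, day 1, and its highest, day 16, spanned 0.91 on the log2 scale, the smallest span of the 10 genes.

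LOX, ADAMTS2 and P4HA2 fell before they rose. LOX, the most abundant lysyl oxidase of skin, ranged from 206 to 653 CPM on day 0 with a median of 255. On day 1 it ranged from 61.9 to 128 CPM in the center and from 27.1 to 130 CPM at the edge, below every skin sample at both locations. The fall was 2.07 ± 0.29 on the log2 scale in the center (log2 difference -2.07, adjusted p = 5.25e-10, 4.21-fold) and 2.46 ± 0.29 at the edge (log2 difference -2.46, adjusted p = 1.29e-11). LOX was lower than skin on days 1 and 2 in the center and on days 1 to 5 at the edge. In 0 of 28 states was it higher by edgeR, with 0 at an unadjusted p below 0.05 and 0 by DESeq2. With the animal as a replicate block, 2 of the edge calls were lost, those of day 3 (-0.76, adjusted p = 0.0524) and day 5 (-0.32, adjusted p = 0.453). The edge calls of days 4 and 5 were also lost without replicate 5, and that of day 4 without replicate 4.

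ADAMTS2 fell as LOX did and then passed its starting level. Its median was 246 CPM in skin (177 to 420), 75.5 CPM in the day 1 center (55.7 to 123) and 680 CPM in the day 13 center (565 to 800). Neither wound state overlapped skin. The log2 difference from day 0 was -1.91 ± 0.26 (adjusted p = 1.17e-10) on day 1 and 1.38 ± 0.25 (adjusted p = 9.89e-07) on day 13. In the center it was lower on days 1 to 3 and higher from day 7 on. At the edge it was lower on days 1 to 5 and higher on days 11, 13, 16, 19 and 21. With the animal as a replicate block, the lower calls of day 3 in the center (adjusted p = 0.173) and day 5 at the edge (adjusted p = 0.421) and the higher edge calls of day 13 (adjusted p = 0.2) and day 16 (adjusted p = 0.37) were lost. At the edge, leaving out 1 replicate number lost the call of day 4 (replicate 4 or 5), day 5 (5), day 11 (1, 2, 3 or 6), day 13 (3), day 16 (1, 2, 3 or 6) and day 21 (2 or 3).

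P4HA2, the most abundant alpha subunit in skin, fell from a median of 88.2 CPM (76.2 to 122) to 49.5 CPM in the day 1 center (37.6 to 62.5). On day 5 the center reached 214 CPM (187 to 278). The differences were -1.09 ± 0.26 (adjusted p = 0.000193) and 1.24 ± 0.27 (adjusted p = 2.2e-05). It was higher than skin in 10 center states and 8 edge states. The edge calls of days 9, 13 and 16 were lost with the animal as a replicate block (adjusted p = 0.0951, 0.102 and 0.204). Without 1 replicate number the calls of day 9 at the edge (replicate 3), day 11 in the center (2), day 11 at the edge (1 or 3), day 13 at the edge (3) and day 16 at the edge (1, 2, 3 or 6) were lost.

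PCOLCE was called against skin in 5 of 28 states. Its skin samples ranged from 192 to 397 CPM with a median of 256, and its day 5 center samples from 359 to 650 with a median of 475 (0.75 ± 0.26, adjusted p = 0.00785). It was higher than skin only on days 2 to 5, in the center, and lower only on day 1, at the edge, where it ranged from 39.2 to 149 CPM (-1.72 ± 0.27, adjusted p = 5.75e-08). With the animal as a replicate block the center calls of day 2 (adjusted p = 0.286) and day 4 (adjusted p = 0.161) were lost, while day 1 and day 7 in the center passed as higher (adjusted p = 0.0364 and 0.0217) and day 2 at the edge as lower (adjusted p = 0.0251). The center calls of days 2, 3 and 4 were also lost without single replicate numbers (1, 2, 3, 5 or 6 for day 2, 6 for day 3 and 3 for day 4).

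The remaining calls that changed under the animal as a replicate block were few. PLOD1 and P4HA3 on day 2 in the center (adjusted p = 0.118 and 0.0802), PLOD2 and P4HA3 on day 2 at the edge (adjusted p = 0.1 and 0.156) and P4HA1 on day 16 at the edge (adjusted p = 0.0646) no longer passed, while ADAMTS2 on day 4 in the center (adjusted p = 0.0431) and LOX on day 9 at the edge (adjusted p = 0.0431) passed as lower. Leaving out single replicate numbers also lost P4HA1 on day 1 in the center (3 or 6), PLOD1 (1 or 6) and P4HA3 (6) on day 2 in the center, PLOD2 (2 or 6) and P4HA3 (1, 2, 3 or 6) on day 2 at the edge, PLOD1 on day 3 at the edge (3 or 6) and P4HA1 on day 16 at the edge (3).

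Between days 1 to 3 and days 4 to 7, 10 of 10 genes rose at the edge, where 12.7% of all genes did, and 9 of 10 rose in the center, where 19.8% did. The median log2 change of the 10 genes was 1.5 in the center and 1.34 at the edge, beside -0.09 and -0.04 over all genes tested. P4HA3 rose most in the center (2.97 ± 0.22, adjusted p = 5.3e-24, 7.83-fold), and LOXL2 most at the edge (2.3 ± 0.18, adjusted p = 5.59e-21, 4.91-fold). PCOLCE, the exception in the center (0.03 ± 0.14, adjusted p = 0.91), rose at the edge by 0.48 ± 0.14 (adjusted p = 0.00739), a call that did not hold in animals 4 to 6 alone (0.32, adjusted p = 0.387). Each window of days holds both sets of animals. Cell markers moved over the same windows. Of the fibroblast markers 7 of 10 rose in the center and 7 of 10 at the edge (median log2 changes 0.59 and 0.71), and of the endothelial markers 2 of 8 rose in the center and 7 of 8 at the edge. In the center 8 of 9 keratinocyte markers fell (median -2.77), as did 8 of 9 skeletal muscle markers and 7 of 7 adipocyte markers. The 3 of 9 macrophage and neutrophil markers and 2 of 7 hair follicle markers that fell were near the share of all genes that fell there. That share is given below with the other genes of the pathway. At the edge the median log2 changes were -0.12 for the keratinocyte, 0.05 for the muscle and -0.17 for the adipocyte markers, beside -0.04 over all genes. The part of these cells in the rise of the 10 genes was not tested.

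Between days 4 to 7 and days 9 to 13, 2 of 10 genes rose and 2 fell in the center, where 22.9% and 18.3% of all genes did, and 2 rose and 1 fell at the edge, where 17.9% and 17.3% did; these shares are near those of all genes. ADAMTS2 rose further, by 1.06 ± 0.13 (adjusted p = 8.25e-11) in the center and 0.98 ± 0.13 (adjusted p = 2.08e-09) at the edge. LOXL2 rose by 0.60 ± 0.16 (adjusted p = 0.00152) in the center and 0.64 ± 0.16 (adjusted p = 0.000981) at the edge. The LOXL2 calls did not hold in animals 1 to 3 alone (0.35, adjusted p = 0.303, and 0.43, adjusted p = 0.216). P4HA1 fell by 0.78 ± 0.12 in the center (log2 difference -0.78, adjusted p = 8.91e-08), and SERPINH1 by 0.58 ± 0.16 (log2 difference -0.58, adjusted p = 0.00139). P4HA1 was also lower at the edge (-0.35 ± 0.12, adjusted p = 0.0156), but within animals 1 to 3 (adjusted p = 0.0722), within animals 4 to 6 (adjusted p = 0.105) and without replicate 5 or 6 (adjusted p = 0.0562 and 0.0898) it did not pass. Over the same windows 7 of 9 keratinocyte markers rose in the center (median 3.02), and of the fibroblast markers 5 of 10 rose and 2 fell there. With the animal as a replicate block PCOLCE also passed as lower in the center (-0.40, adjusted p = 0.02).

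Between days 9 to 13 and days 15 to 21 edgeR called 0 of 10 genes at either location, where 27.7% of all genes changed in the center and 7.25% at the edge. At an unadjusted p below 0.05 there were 0 in the center and 1 at the edge (PLOD2, -0.47 ± 0.18, adjusted p = 0.0842), and DESeq2 called 0 at both. The center values of the 10 genes lay between -0.35 ± 0.23 for P4HA3 and 0.23 ± 0.16 for ADAMTS2.

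The change with time was compared between center and edge by an interaction term. It passed in 2 of 30 tests, where 12.2% of all tests did. P4HA3 rose more in the center than at the edge from days 1 to 3 to days 4 to 7 (0.98 ± 0.28, adjusted p = 0.00687). The change of SERPINH1 from days 4 to 7 to days 9 to 13 was lower in the center than at the edge (-0.70 ± 0.22, adjusted p = 0.0273), with a value of -0.58 ± 0.16 in the center and 0.12 ± 0.15 at the edge. Without replicate 3 the P4HA3 difference was 0.86 (adjusted p = 0.0614). The SERPINH1 difference did not pass without replicate 1, 2 or 3 (adjusted p = 0.162, 0.0793 and 0.145) or when genes with low counts were kept in the test (adjusted p = 0.0585). Within animals 4 to 6 neither passed (adjusted p = 0.295 and 0.188), nor did SERPINH1 within animals 1 to 3 (adjusted p = 0.412). Without the 8 libraries that stood apart PCOLCE also passed for days 1 to 3 to days 4 to 7 (-0.65 ± 0.19, adjusted p = 0.00678).

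The edge samples of each day were compared with the center samples of that day. The main test did not pair the edge and center of a wound, and the 2 wounds of an animal were counted as separate samples. Over the 14 days, 55 of 140 tests of these genes were lower at the edge, where 11.0% of all gene tests were, and 0 of 140 were higher, where 12.5% were. None was higher at an unadjusted p below 0.05 (0 of 140) or by DESeq2 (0). With the wound as a replicate block 63 tests were lower, and without the 8 libraries that stood apart 60 were. With the 2 wounds of an animal summed, 7 of the 55 calls were lost and 7 others made. Those lost were P4HA3 on day 5, PLOD2 on days 6, 9 and 13, PCOLCE on day 9, and LOXL2 and PLOD1 on day 11. Day 5 had the most genes lower at the edge, 8 (16.8% of all genes), ahead of day 7 with 7 (17.1%) and day 1 with 6 (22.6%). There were 5 each on days 2, 9, 11, 15 and 16, beside 17.7, 14.3, 22.9, 9.81 and 5.87% of all genes. Day 13 had 4 (11.8%), day 4 had 3 (11.4%) and day 6 had 2 (3.92%). In a fit over all days, 10 of 10 genes were lower at the edge, where 33.8% of all genes were and 32.5% were higher.

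**Figure D2:**
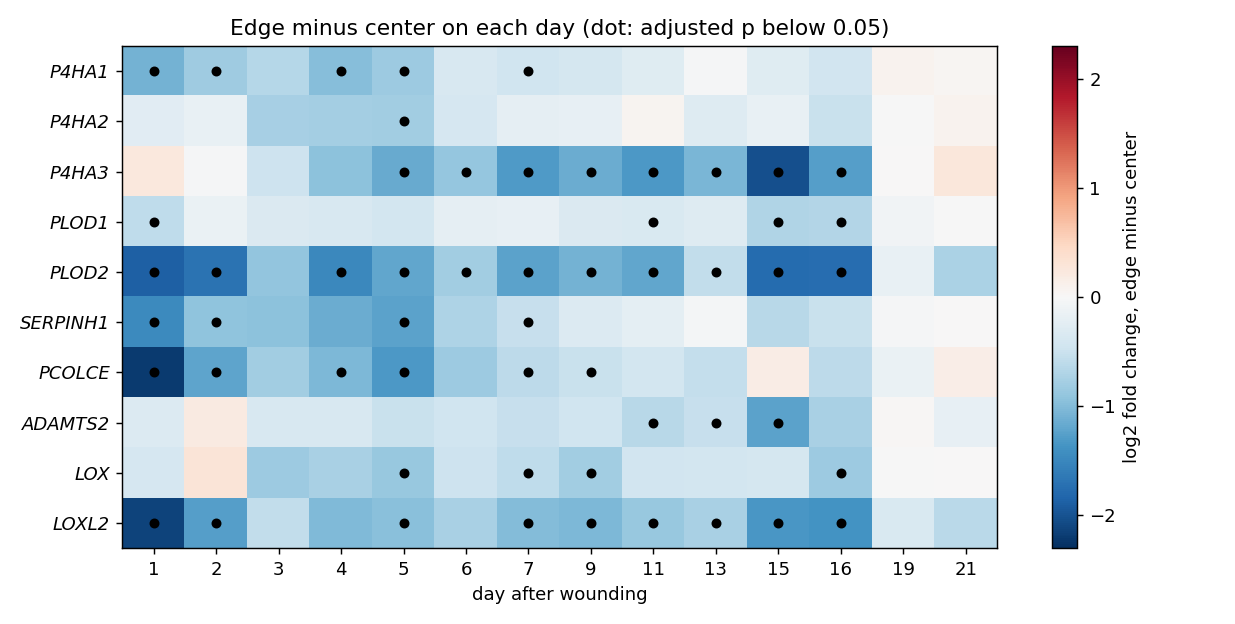
Log2 fold change, edge minus center, of each gene (rows) on each day (columns), with blue for lower at the edge and red for higher on a scale centered on 0. Black dots mark an adjusted p below 0.05; the 55 dots all lie on blue cells, and days 3, 19 and 21 carry none.

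Over all days the largest differences were those of PLOD2 and LOXL2. PLOD2 was 2.26-fold lower at the edge (log2 difference -1.18 ± 0.08, adjusted p = 6.76e-26) and lower in 71 of 72 wounds. LOXL2 was 2.00-fold lower (-1.0 ± 0.09, adjusted p = 1.34e-18) and lower in 72 of 72 wounds. The LOXL2 difference was as small as -0.018 (log2(1 + CPM)), in wound G of animal 3 on day 3. P4HA3 (-0.79 ± 0.11, adjusted p = 1.7e-10) was lower in 58 wounds, PCOLCE (-0.71 ± 0.08, adjusted p = 1.83e-14) in 65 and SERPINH1 (-0.62 ± 0.09, adjusted p = 2.93e-10) in 66. The smallest differences were those of P4HA2 (-0.31 ± 0.08, adjusted p = 0.000292, 54 wounds) and PLOD1 (-0.34 ± 0.05, adjusted p = 3.83e-10, 65 wounds). LOX (-0.46 ± 0.08, adjusted p = 5.67e-07), P4HA1 (-0.46 ± 0.07, adjusted p = 1.29e-09) and ADAMTS2 (-0.44 ± 0.08, adjusted p = 1.2e-07) lay between. This fit counted every library as a separate sample, so its SE and p-values do not measure the spread between animals. For each of the 10 genes the mean over an animal's wounds was lower at the edge in 6 of 6 animals. The mean over the 6 animals was -1.21 ± 0.13 (SD, log2(1 + CPM)) for PLOD2 and -1.07 ± 0.10 for LOXL2.

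**Figure D3:**
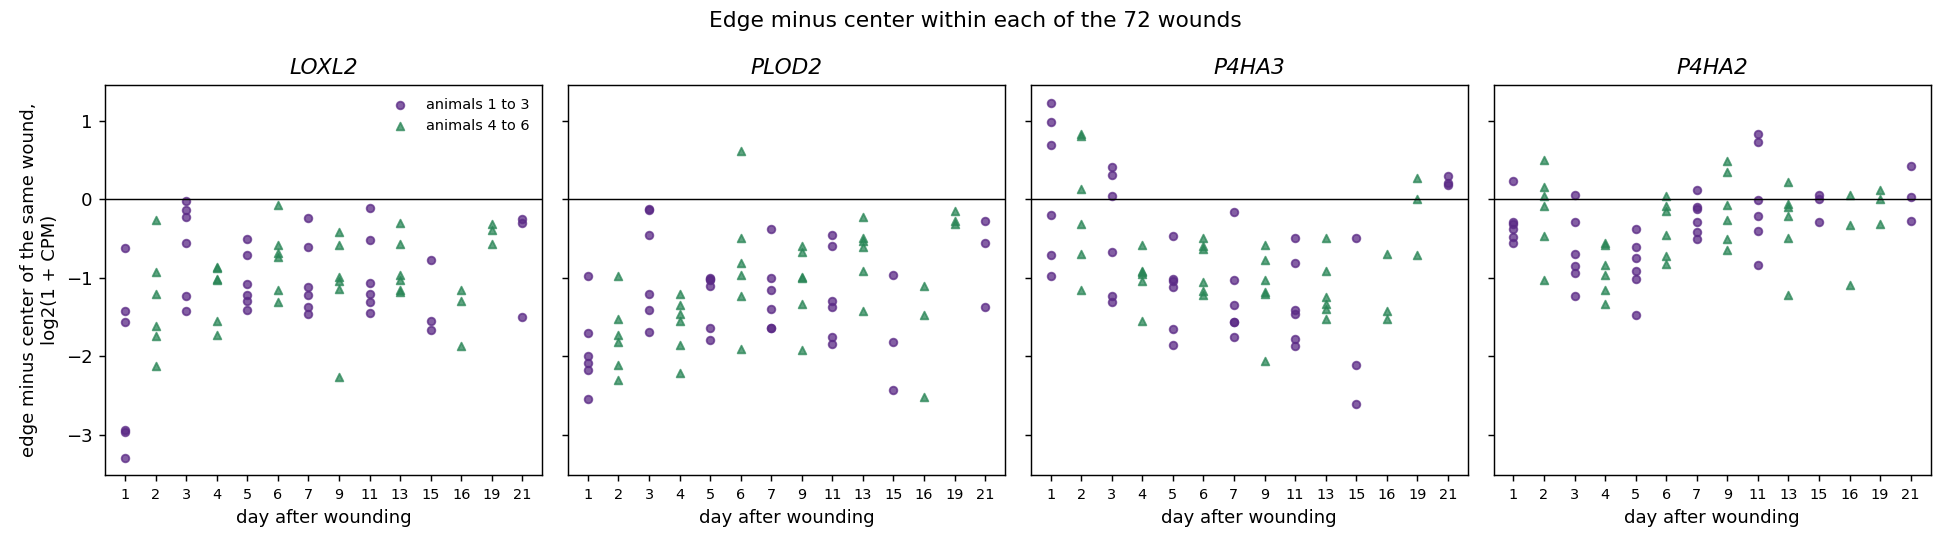
Edge minus center within each of the 72 wounds, as the difference in log2(1 + CPM), by day, for LOXL2, PLOD2, P4HA3 and P4HA2. Circles are wounds of animals 1 to 3 and triangles wounds of animals 4 to 6; all 72 LOXL2 points lie below 0, while P4HA3 points lie on both sides of 0 on days 1 to 3 and below it in all 24 wounds of days 4 to 7 and all 18 of days 9 to 13.

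The day of the difference varied from gene to gene. PCOLCE, LOXL2, PLOD2 and SERPINH1 differed most on day 1. PCOLCE held 308 to 650 CPM in the center on that day and 39.2 to 149 CPM at the edge, without overlap (-2.20 ± 0.30, adjusted p = 0.000228, 4.59-fold lower). PLOD2 held 37.0 to 52.5 CPM and 6.97 to 19.0 CPM, again without overlap (-1.88 ± 0.23, adjusted p = 0.000156), and LOXL2 and SERPINH1 also did not overlap (-2.14 ± 0.34, adjusted p = 0.000497, and -1.46 ± 0.24, adjusted p = 0.000535). On that day every edge sample lay below every center sample in 12.3% of all genes. P4HA1 (-1.08 ± 0.25, adjusted p = 0.00441) and PLOD1 (-0.58 ± 0.12, adjusted p = 0.00242) were lower too, whereas P4HA3 (0.24), P4HA2 (-0.26), ADAMTS2 (-0.32) and LOX (-0.39) were not called.

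On day 5, 8 of 10 genes were lower at the edge, and 6 of them did not overlap between the locations (6.09% of all genes): P4HA1, P4HA2, PLOD2, SERPINH1, PCOLCE and LOX. SERPINH1 held 1280 to 2411 CPM in the center and 334 to 1236 CPM at the edge (-1.23 ± 0.31, adjusted p = 0.00767). LOX held 269 to 446 CPM in the center and 129 to 247 CPM at the edge (-0.88 ± 0.18, adjusted p = 0.00151). P4HA2 was called on this day (-0.80 ± 0.22, adjusted p = 0.0126) and, with the wound as a replicate block, on day 4 (-0.86, adjusted p = 0.000225). With the wound as a replicate block 10 of 10 passed, ADAMTS2 and PLOD1 joining (adjusted p = 0.0187 and 0.0147). Library 6 of the day 5 edge stood above its replicates in 7 genes, and without it 9 genes passed. The calls of LOXL2 and P4HA3 were lost without replicate 4 and replicate 3.

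On day 4 the block had its largest effect. There 3 of 10 genes were lower without it: P4HA1, PLOD2 and PCOLCE. All 10 were lower with the wound as a replicate block, among them SERPINH1 (-1.36, adjusted p = 0.00027), LOXL2 (-1.14, adjusted p = 0.000112), LOX (-0.78, adjusted p = 4.93e-05) and P4HA3 (-0.97, adjusted p = 0.000185). On day 6, P4HA3 and PLOD2 were lower. Without library 5 of the day 6 center, LOXL2 passed too (adjusted p = 0.0468). With the block PLOD2 (adjusted p = 0.0792) gave way to SERPINH1 and LOXL2 (adjusted p = 0.0465 and 0.0245). PLOD2 on that day also did not pass without replicate 1, 2, 3, 4 or 6, nor P4HA3 without 1 or 2.

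P4HA3 was lower at the edge on days 5 to 16 and, with the wound as a replicate block, on day 4 as well and not on day 15. Its center and edge samples did not overlap on days 6, 9, 11, 13, 15 and 16, where the edge lay wholly below the center in 1.44, 5.08, 10.1, 4.98, 18.1 and 18.2% of all genes. On day 11 the center ranged from 54.5 to 170 CPM and the edge from 34.4 to 52.9 (-1.32 ± 0.23, adjusted p = 0.000733), and on day 13 from 94.9 to 127 and from 41.4 to 82.7 (-1.04 ± 0.16, adjusted p = 0.000635). On day 15 the center held 46.8, 128 and 167 CPM and the edge 33.0, 28.8 and 26.5 CPM (-2.02 ± 0.46, adjusted p = 0.0351; with the wound as a replicate block -1.88, adjusted p = 0.0829). On days 19 and 21 the locations overlapped, and on day 21 the 3 edge samples (43.0, 61.4 and 72.2 CPM) were each above the center sample of the same wound (37.7, 53.0 and 58.4 CPM).

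ADAMTS2 was lower at the edge on days 11, 13 and 15, and on day 15 it held 594, 811 and 849 CPM in the center and 403, 336 and 270 CPM at the edge (-1.23 ± 0.24, adjusted p = 0.0263; with the wound as a replicate block adjusted p = 0.0613). LOXL2 was lower on days 1, 2, 5, 7, 9, 11, 13, 15 and 16, PLOD2 on 11 of the 14 days, PCOLCE on days 1, 2, 4, 5, 7 and 9, and P4HA1 on days 1, 2, 4, 5 and 7. SERPINH1 was lower on days 1, 2, 5 and 7, PLOD1 on days 1, 11, 15 and 16, and LOX on days 5, 7, 9 and 16. The 5 calls of day 15 and the 5 of day 16 rested on 3 wounds: each was lost without replicate 2 or replicate 3, and PLOD1 on day 16 also without replicate 1. On the other days 11 of 45 calls were lost without some replicate. Beyond those named for days 5 and 6, these were SERPINH1 (without 5), PCOLCE (1, 3, 4 or 5), LOX (3 or 5) and P4HA1 (3, 4, 5 or 6) on day 7, PCOLCE on day 9 (2, 3 or 4), PLOD1 on day 11 (1, 2, 5 or 6) and PLOD2 on day 13 (2, 5 or 6).

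On days 3, 19 and 21 edgeR called 0 of 10 genes, and 0 of 10 by DESeq2 on each of these days. At an unadjusted p below 0.05 there were 4 on day 3, 0 on day 19 and 1 on day 21. Of all genes, 0.0% were lower at the edge on these 3 days. On day 3 the values of the 10 genes lay between -0.94 for SERPINH1 and -0.34 for PLOD1. Within single wounds of that day LOXL2 differed by -1.422 in wound G of animal 1. In wounds G of animals 2 and 3 it differed by -0.139 and -0.018 (log2(1 + CPM)). Without the libraries that stood apart on that day (center 4, edge 5 and 6) LOXL2 (-1.09, adjusted p = 0.0136) and PCOLCE (-1.41, adjusted p = 0.0102) were lower, and on day 11, without center library 1, PCOLCE was (-0.51, adjusted p = 0.0164). On day 19 the values lay between -0.35 for LOXL2 and 0.08 for P4HA1.

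Cell markers moved with location. Over all days the edge was higher in 8 of 9 keratinocyte markers (KRT10 by 5.94, adjusted p = 2.08e-33) and 4 of 7 hair follicle markers, and lower in 8 of 10 fibroblast markers (PDGFRA by -1.10, adjusted p = 2.33e-22; TCF21 by -1.69, adjusted p = 3.58e-14), 7 of 8 endothelial markers and 8 of 9 macrophage and neutrophil markers. Of the skeletal muscle markers 4 of 9 and of the adipocyte markers 2 of 7 were lower, near or below the 33.8% of all genes. TCF21 had a median count under 3 at the edge on days 1 to 3, so its difference rests partly on values near the floor. A single fibroblast marker was higher at the edge. Their part in the differences of the collagen enzymes was not tested.

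Within 3 enzyme families the make-up of the transcripts changed, as measured by each gene's share of the family's summed FPKM. In skin LOX made up 68.7% ± 7.8 (SD, n = 6) of the 5 lysyl oxidase transcripts and LOXL2 9.64% ± 2.7. In the center on day 13 LOX made up 22.3% ± 5.4 and LOXL2 47.8% ± 2.1 (n = 6). The ranges of the samples did not overlap for either gene (LOX 60.7 to 82.8% against 15.5 to 28.6%; LOXL2 4.52 to 12.1% against 45.3 to 50.5%). As levels per length, LOX was at 91.9 ± 51.7 FPKM in skin and 103 ± 30 FPKM on day 13, and LOXL2 at 11.5 ± 3.7 and 220 ± 28 FPKM.

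Among the alpha subunits of prolyl 4-hydroxylase, P4HA3 grew from 5.63% ± 3.4 in skin to 38.3% ± 7.6 in the day 13 center, and P4HA2 went from 75.4% ± 3.7 to 48.6% ± 8.5. P4HA1 was at 19.0% ± 3.5 in skin, 42.6% ± 5.9 in the center on day 1 and 13.1% ± 1.9 on day 13. At the edge on day 13 P4HA3 held 25.1% ± 4.9. On day 21 the subunits had shares of 17.6, 62.8 and 19.5% in the center (P4HA1, P4HA2 and P4HA3, means of 3). Among the lysyl hydroxylases PLOD1 went from 66.0% ± 2.9 in skin to 33.1% ± 3.3 in the day 5 center and PLOD2 from 7.44% ± 1.0 to 24.5% ± 1.8, while PLOD3 held 26.6% ± 3.0 and 42.4% ± 2.0. No test was run on shares.

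**Figure D4:**
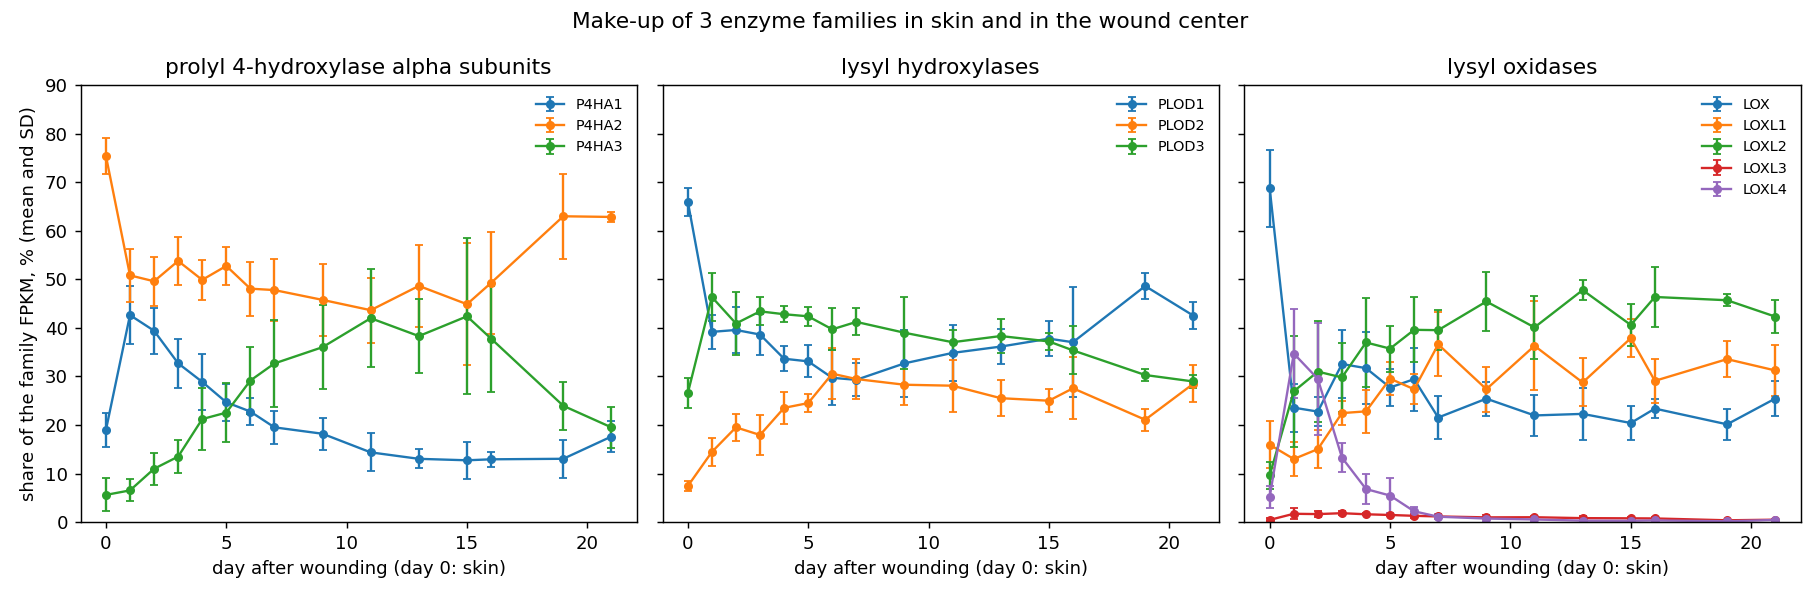
Share of the family's summed FPKM (mean and SD of the samples) against the day after wounding, in day 0 skin and in the wound center, for the 3 prolyl 4-hydroxylase alpha subunits, 3 lysyl hydroxylases and 5 lysyl oxidases. LOX falls from 68.7% in skin to 22.3% on day 13 while LOXL2 rises from 9.64% to 47.8%, and P4HA3 is low in skin, high on days 9 to 16 and lower again on day 21.

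Set side by side per length, the order of the 10 genes also changed. In skin PCOLCE was highest (158 ± 50 FPKM), followed by LOX (91.9 ± 51.7), SERPINH1 (45.2 ± 11.8) and ADAMTS2 (42.9 ± 17.6), and LOX overlapped its neighbours on both sides. On day 5 in the center SERPINH1 was highest (381 ± 103 FPKM), followed by PCOLCE (254 ± 47) and LOXL2 (107 ± 28). SERPINH1 and PCOLCE overlapped, and LOXL2 lay below both in all samples. On day 13 in the center SERPINH1 (231 ± 37), LOXL2 (220 ± 28) and PCOLCE (201 ± 59) overlapped, ahead of ADAMTS2 (109 ± 12) and LOX (103 ± 30). P4HA1 was lowest on that day (17.4 ± 1.9 FPKM).

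Relative to their main substrates SERPINH1, PCOLCE and P4HA1 were highest on day 1 in the center, when the median of the collagen counts was at its lowest there. The summed counts of COL1A1, COL1A2 and COL3A1, which encode type I and type III collagen, had a median of 56420 CPM in skin, 16250 CPM in the day 1 center and 122300 CPM in the day 13 center. Per 1000 of these counts SERPINH1 had a median of 2.77 counts in skin, 32.0 on day 1, 26.8 on day 5 and 8.48 on day 13 in the center. PCOLCE went from 4.37 to 26.6 on day 1 and to 2.95 on day 13. P4HA1 went from 0.669 to 5.79 and back to 0.794.

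LOXL2 and ADAMTS2 behaved otherwise in this measure: LOXL2 had 0.719 counts per 1000 in skin and stayed between 4.31 and 7.42 in all 14 center states, and ADAMTS2 had 4.15 in skin and between 3.44 and 6.45 in the center. LOX had 4.67 in skin, 6.27 on day 1 and 2.79 on day 21. P4HA3 was at 0.0839 in skin and highest on day 6 (1.31). The collagen counts are part of both the ratio and the library total, and no test was run on the ratios.

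**Figure D5:**
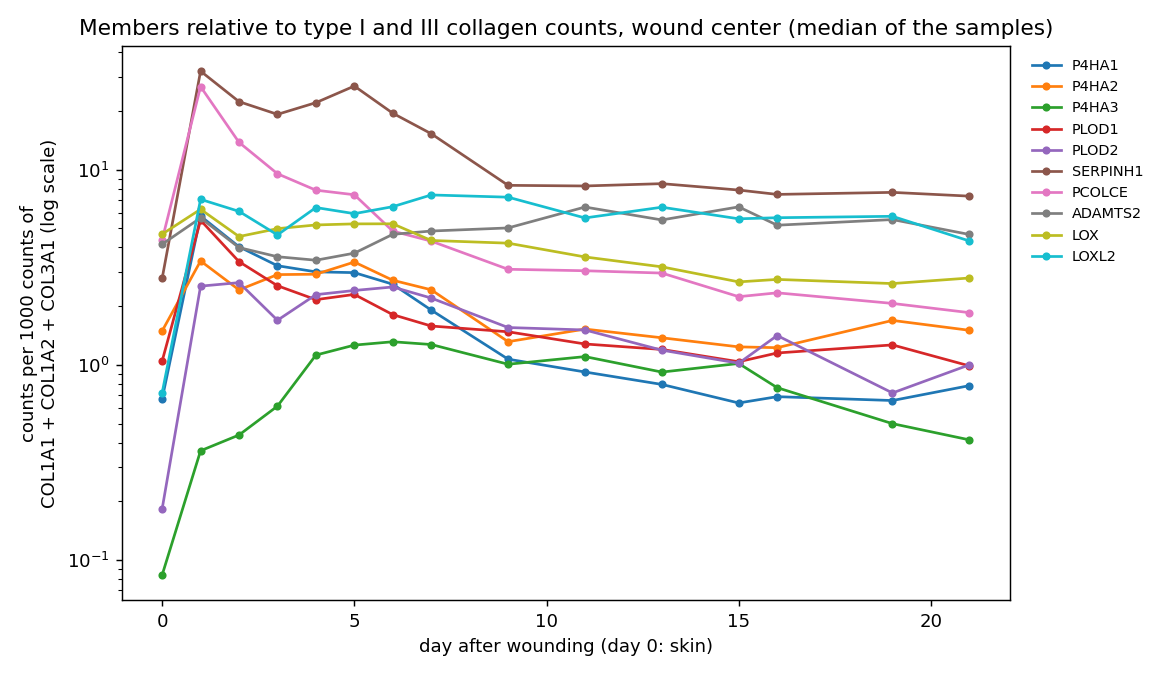
Median counts of each gene per 1000 counts of COL1A1, COL1A2 and COL3A1 (log scale) against the day after wounding, in day 0 skin and in the wound center. SERPINH1 and PCOLCE peak on day 1 at 32.0 and 26.6, while P4HA3 is highest on day 6 at 1.31 and LOXL2 stays between 4.31 and 7.42 from day 1 on.

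The other genes of the pathway were taken from fixed lists. Of 17 other genes for modification and export of collagen in the endoplasmic reticulum, 13 were lower at the edge over all days and 3 higher, with a median log2 difference of -0.41 beside -0.01 over all genes. PLOD3 was higher than skin in all 28 wound states, by up to 3.02 on day 7 in the center, and lower at the edge than in the center (-0.80 ± 0.07, adjusted p = 3.85e-21). TRAM2 (27 states) and SEC23A (26 states), which serve secretion, were higher too. P3H2, a prolyl 3-hydroxylase of basement membrane collagen, went the other way: it was lower than skin in 26 states, by up to 3.97 in size (log2 difference -3.97), and higher at the edge (1.74 ± 0.10, adjusted p = 3.28e-32). These genes were named because they were called in the most states. Of the 17, 3 were higher and 6 lower than skin at the day 1 edge, and 13 higher and 3 lower in the day 4 center. Over all gene comparisons with skin, 19.9% were higher and 14.6% lower in the edge states, and 28.2% and 27.5% in the center states. From days 1 to 3 to days 4 to 7, 12 of the 17 rose and 1 fell in the center, beside 19.8% and 29.9% of all genes.

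Of 9 other extracellular procollagen proteinases and lysyl oxidases, 9 were lower at the edge over all days, with a median of -0.48. BMP1, the C-proteinase that PCOLCE enhances, was higher than skin in 27 states, by up to 3.12 on day 7 in the center, and lower at the edge (-0.85 ± 0.06, adjusted p = 1.62e-25). TLL1, its relative, was higher in 27 states, LOXL3 in 27, and LOXL1 was higher in 23 and lower in 2. These too were named as those called in the most states. Of the 9, 0 were higher and 2 lower than skin at the day 1 edge (19.9% and 14.6% over all edge comparisons). In the day 4 center 8 were higher and 0 lower (28.2% and 27.5% over all center comparisons). From days 9 to 13 to days 15 to 21, 5 of the 9 fell in the center and 0 rose, beside 13.4% and 14.2% of all genes. LOXL4, named after its values were seen, held 34.7% ± 9.2 of the lysyl oxidase FPKM in the day 1 center and 5.23% ± 2.3 in skin (SD, n = 6).

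The 5 fibrillar collagen genes were all lower at the edge over all days (median -0.41), and all 5 rose from days 1 to 3 to days 4 to 7 in both places. COL1A1 and COL3A1 were lower than skin before they rose above it. In the center their log2 differences from skin ran from -2.60 to 1.42 and from -1.93 to 1.36. At the edge they ran from -2.36 to 1.55 and from -2.07 to 1.47. COL5A2 was higher than skin in 26 states and COL5A1 in 23. Of 10 hypoxia response genes, a list included because P4HA1, P4HA2, PLOD2, LOX and LOXL2 are known to respond to low oxygen, 5 were higher at the edge and 3 lower over all days (median 0.40), which is near the 32.5% and 33.8% of all genes. ADM (24 states), LDHA (22) and ENO1 (25) were higher than skin, and PDK1 was lower in 26 states and higher at the edge (0.88 ± 0.06, adjusted p = 1.19e-27). These genes were named because they were called in the most states. Of the 10, 5 were higher and 5 lower than skin in the day 4 center, and 6 higher and 1 lower at the day 4 edge. Over all gene comparisons with skin, 28.2% were higher and 27.5% lower in the center states, and 19.9% and 14.6% in the edge states.

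The 10 genes did not follow a single course over the 29 states. Among their 45 pairs, Pearson's r of the state means of log2(1 + CPM) ran from 0.17 (PCOLCE and ADAMTS2) to 0.95 with a median of 0.79, and 22 pairs were over 0.8. PLOD1 (0.95), SERPINH1 (0.95), LOXL2 (0.94) and PLOD2 (0.93) were closest to the mean course of the other 9 genes, and PCOLCE (0.49), P4HA1 (0.71) and ADAMTS2 (0.72) least close. The genes were measured in the same libraries and the states share animals, so these values are a description.

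Among 15822 other named genes, those most like the mean course of the 10 were FKBP10 (r = 0.981), KDELR3 (0.98), GPX7 (0.977), P3H1 (0.977) and CALD1 (0.974), over the same 29 states. FKBP10 encodes a prolyl isomerase and P3H1 a prolyl 3-hydroxylase, both of the endoplasmic reticulum. The gene most like each was FKBP14 for P4HA1 (0.95), PPIC for P4HA2 (0.971), CHST6 for P4HA3 (0.973), SEC24D for PLOD1 (0.964), NECTIN3 for PLOD2 (0.982), GPX7 for SERPINH1 (0.983), TBX18 for PCOLCE (0.924), OLFML2B for ADAMTS2 (0.988), GLT8D2 for LOX (0.97) and ADAMTS12 for LOXL2 (0.99).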

How the data were processed

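RNA of 150 skin and wound samples was enriched for poly-A and sequenced as read pairs. The authors deposited raw counts per gene, without normalization, and FPKM values, normalized for gene length and library. The aligner, counting tool, genome build and strand setting are not given in the sources used here. The labels give day, place, animal and wound, which set the groups and the replicate numbers. The 10 genes, the lists and the libraries set aside were chosen with earlier results of these data known.

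From the deposited counts, CPM used library totals, and levels are log2(1 + CPM). Levels of different genes were compared by FPKM only. Genes with low counts were dropped by filterByExpr, with a count of at least 10 and a total of at least 15, TMM factors set the scale, and the quasi-likelihood test of edgeR 4.0.16 (in R 4.3.3) was run with p-values adjusted over all genes by Benjamini and Hochberg, for edge against center on each day's samples (14166 to 14652 genes) and otherwise on all 150 samples (17916 genes). The scripts were tested on simulated data. The alternatives were DESeq2 1.42.0, library totals without TMM, no filter, wounds of an animal summed, each replicate left out, other sets of samples, 8 libraries left out, and a replicate block. The block pairs the edge and center of a wound, or samples of an animal, as the labels give them. In 59 of 72 wounds the deviations of edge and center from their state means correlated with r over 0.1 (mean 0.267). Other tables used Python 3.11.15 with pandas 2.3.3.

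Genes named beside the 10 are, of each list, up to 4 called against day 0 in the most states, and those most like the 10 over the states. Total counts per sample limit precision, and counting error was small beside the spread between wounds. Wounds of 1 animal are not independent animals.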

Additional observations from a re-analysis of the deposited data

Results flagged for a closer look

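Among 210 groups of 6 samples (10 genes in 21 states), 10 held a sample whose gap to the nearest other exceeded 0.625 of the group's range, where chance gives about 10.5. Of these, 4 were in library 2 of the day 11 center, above its replicates in log2(1 + CPM): P4HA1 at 7.318 (others 6.09 to 6.50), P4HA2 at 7.96 (6.83 to 7.17), SERPINH1 at 10.39 (9.42 to 9.74) and LOX at 9.173 (8.19 to 8.40). Another 4 were in library 4 of the day 3 center, below its replicates: PLOD1 at 6.355 (others 6.84 to 7.12), SERPINH1 at 7.921 (9.59 to 10.48), PCOLCE at 7.201 (8.79 to 9.53) and LOXL2 at 6.269 (7.68 to 7.92). P4HA3 stood at 6.387 in library 6 of the day 13 edge (others 5.41 to 5.67), and PLOD1 at 6.272 in library 6 of the day 1 edge (5.52 to 5.75).

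The change with time differed between center and edge for P4HA3 from days 1 to 3 to days 4 to 7 (0.983 on the log2 scale, edgeR interaction, adjusted p = 0.00687) and for SERPINH1 from days 4 to 7 to days 9 to 13 (-0.702, adjusted p = 0.0273).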

How the results depend on the processing

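No call changed direction under any alternative. Tests lower at the edge numbered 55, and 52 to 65 under the alternatives (63 with the wound as a replicate block, 65 by DESeq2), or 40 to 52 without 1 replicate number. Over all days all 10 genes stayed lower at the edge throughout. Of the 55, 7 were lost and 7 others gained with wounds of an animal summed, and 11 lost and 10 gained with all samples in one fit. Comparisons with day 0 that were higher numbered 102 to 108 in the center and 77 to 91 at the edge, or 99 to 107 and 74 to 87 without 1 replicate number. Genes lower in a later window numbered 3, and 5 with library totals only. This scaling moved the median of all genes by -0.26 to 0.17, by over 0.1 in 16 of 52 contrasts. The 2 interactions became 1 with no filter, 1 in animals 1 to 3, 0 in animals 4 to 6 and 0 to 2 without 1 replicate number. The genes with their highest center mean on days 4 to 7 numbered 5, and 3 to 6 without 1 replicate number. The replicate block changed no other call than those given. With 3 wounds a state, days 15 to 21 limit what can be called. The causes were not tested.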
